A study of Mus musculus with 4 samples.

Results

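S-phase tumour cells are the cells of these mouse tumours that are rich in RNA of DNA replication genes and stay below a limit for 5 G2/M genes. They were taken from 4 single-cell libraries as cell barcodes with at least 500 unique molecular identifiers (UMIs, each a captured RNA molecule), at least 300 genes and no more than 20% of UMIs from mitochondrial genes. Members were chosen by their own counts: each had 8 or more UMIs summed over 6 S-phase genes (Pclaf, Rrm2, Clspn, Esco2, Hells and Cdc6) and fewer than 10 UMIs summed over 5 G2/M genes (Cenpf, Cenpe, Ccnb1, Plk1 and Aurka). The rule found 3684 members among 31150 barcodes past the filter. There were 868 of 7882 in YSG males, 1099 of 8419 in SG males, 672 of 7193 in YSG females and 1045 of 7656 in SG females.

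YSG tumours (fYap1;fSMO-M2;hGFAPcre) carried floxed Yap1, floxed SMO-M2 and hGFAPcre, and are described as rescued animals at end point. SG tumours (fSMO-M2;hGFAPcre) carried the same alleles without floxed Yap1. SMO-M2 is a constitutively active Smoothened, and hGFAPcre is a Cre recombinase under the human GFAP promoter, so both genotypes share the activated hedgehog allele and the Cre. There was 1 library of each genotype in each sex, from fresh tissue labelled MB and captured with the 10x Genomics 3' kit. How many animals made up a library, how old they were and the zygosity of the alleles are not stated in the labels. Males and females were kept apart, so each group had 1 library and no test was made, and intervals given below cover counting error only.

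In S phase a cell fires replication origins that were loaded with the MCM helicase in G1, copies the DNA with a replisome built around that helicase, and at the same time makes deoxynucleotides and new histones. Much of this gene programme is switched on at the end of G1 by E2F transcription factors once cyclin E and Cdk2 have inactivated the Rb proteins. Hedgehog signalling drives cerebellar granule neuron progenitors through this transition, and SMO-M2 keeps it on in medulloblastoma models of that lineage.

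Promoters of 4 of the 6 S-phase genes of the rule held the E2F element, so 2 of them are printed here beside that of Mcm6. They are the 250 bases before the RefSeq start on build GRCm38.p6 (mm10), 5' to 3' on the gene's strand, in lower case, with capitals at each match to TTTCCCGC, TTTCGCGC, TTTGCCGC or TTTGGCGC on either strand. Cdc6 (chr11:98907901-98908150, plus strand) loads the helicase onto origins, Hells (chr19:38930740-38930989, plus strand) remodels chromatin for DNA methylation, and Mcm6 (chr1:128359706-128359955, minus strand) is a helicase subunit that the rule did not use.
Cdc6: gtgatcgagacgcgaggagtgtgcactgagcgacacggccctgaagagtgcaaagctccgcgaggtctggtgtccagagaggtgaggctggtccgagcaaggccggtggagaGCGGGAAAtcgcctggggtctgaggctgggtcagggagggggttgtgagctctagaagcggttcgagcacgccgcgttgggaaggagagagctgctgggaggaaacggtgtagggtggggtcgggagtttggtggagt
Hells: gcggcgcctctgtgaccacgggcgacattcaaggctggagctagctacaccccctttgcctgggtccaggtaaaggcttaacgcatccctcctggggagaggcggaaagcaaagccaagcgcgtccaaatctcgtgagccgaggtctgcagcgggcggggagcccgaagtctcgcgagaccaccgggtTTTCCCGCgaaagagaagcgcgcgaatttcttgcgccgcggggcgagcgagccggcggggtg
Mcm6: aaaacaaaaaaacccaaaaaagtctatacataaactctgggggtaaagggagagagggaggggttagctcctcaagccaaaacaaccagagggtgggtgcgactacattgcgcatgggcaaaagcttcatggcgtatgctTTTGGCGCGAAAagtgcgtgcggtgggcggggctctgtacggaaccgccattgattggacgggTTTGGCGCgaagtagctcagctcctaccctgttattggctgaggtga
Mcm6 held 3 matches, of which the first pair overlaps on opposite strands, and Cdc6 and Hells held 1 each. In windows that also take in the 50 bases after the start, 4 of the 5 rule genes with a RefSeq window held a match (Cdc6, Hells, Pclaf and Clspn). Among 92 listed replication genes, 74 had windows, and 22 of their 85 windows (25.9%) held one, against 744 of 32851 windows of all genes (2.26%). A match is a description of the sequence and not a measured binding site. The 5 G2/M genes of the rule had no such match. The element TTTGAA, known from promoters that act in G2/M, was in 3 of their 5 windows. It was in 17.9% of all windows, where a motif of 6 letters is common. None of the matches in the G2/M genes lay wholly within the 250 bases before the start.

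Yap1, the floxed gene, was checked first. The members held 2 Yap1 UMIs in YSG males and 39 in SG males, and 0 in YSG females and 45 in SG females. Each YSG library was lower than the SG library of its sex, though counts of 3' ends need not lie in the floxed exons. The remaining barcodes had 0.155 CPM (UMIs per 1000000 UMIs of the set) in YSG and 3.72 CPM in SG males, and 0.0596 CPM in YSG and 4.52 CPM in SG females.

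Transcripts of the granule lineage were counted in the members of every library. Zic1, a transcription factor of granule progenitors, had 603 CPM in YSG and 391 CPM in SG males, and 546 CPM in YSG and 391 CPM in SG females. Atoh1, which specifies the lineage, had 39.6 CPM in YSG and 25.8 CPM in SG males, and 30.3 CPM in YSG and 31.6 CPM in SG females. After barcodes of 4000 or more UMIs were thinned to 4000, 13.6%, 8.6%, 11.3% and 9.69% of members had an Atoh1 UMI in YSG males, SG males, YSG females and SG females, against 14.8%, 6.45%, 10.7% and 4% of the few leukocyte and oligodendrocyte barcodes, which should lack it. The members' Atoh1 shares lay within the exact intervals of those barcodes in all 4 libraries, so they could not be told from background. Unthinned, they were 28.9%, 19.4%, 23.7% and 26.9%. Barhl1, another granule lineage factor, was in 48.7%, 41.4%, 44.7% and 39.4% of thinned members, against 37%, 25.8%, 21.4% and 24% of those barcodes, and in YSG females the members' share lay above the barcodes' interval (8.3% to 41%). Unthinned, Barhl1 was in 72.8%, 67.2%, 72.5% and 67% of members. All 12 listed granule progenitor genes reached 20 CPM in at least 1 library of each sex. EYFP, a feature listed in the files beside the mouse genes, had 55.3, 38.9, 36.5 and 42.8 CPM in YSG males, SG males, YSG females and SG females.

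Markers of leukocytes, endothelium and stroma were low in the members' summed RNA, while astroglial UMIs occurred in most members. Members with 3 or more UMIs of any other cell type made up 63%, 60.6%, 51.9% and 59.8% in YSG males, SG males, YSG females and SG females, and those with 3 or more astroglial UMIs 62%, 59.7%, 51% and 59.4%. Members with 0 UMIs of other cell types numbered 58, 85, 48 and 75. The 10 leukocyte genes summed to 1.7 CPM in YSG and 2.95 CPM in SG males, and to 34.6 CPM in YSG and 0.783 CPM in SG females, where 1 YSG female member held 20 or more leukocyte UMIs. Ptprc, the pan-leukocyte antigen CD45, was at 0 in YSG males and SG females. The 10 endothelial and stromal genes summed to 5.42 to 7.68 CPM, and Dcn, a fibroblast gene, was also at 0 in YSG males and SG females. The 8 oligodendrocyte genes summed to 108 CPM in YSG and 47.3 CPM in SG males, and to 46.5 CPM in YSG and 29.7 CPM in SG females. The 9 astroglial genes, of which Fabp7 and Slc1a3 are also in the stem and glial list, summed to 492 CPM in YSG and 572 CPM in SG males, and to 343 CPM in YSG and 478 CPM in SG females. Members with 20 or more UMIs of any other cell type numbered 9 in YSG and 29 in SG males, and 5 in YSG and 37 in SG females, most of them by the astroglial list.

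Members were deeper than other barcodes. Their median depth was 8604 UMIs in YSG and 8804 UMIs in SG males, and 10406 UMIs in YSG and 10580 UMIs in SG females. The remaining barcodes had medians of 5554 and 5742 UMIs in YSG and SG males, and 6364 and 6857 UMIs in YSG and SG females. G2/M-high barcodes, with 10 or more UMIs of the 5 G2/M genes, were deeper still, at 11520, 13794, 13479 and 18059 UMIs in YSG males, SG males, YSG females and SG females. A fixed number of UMIs therefore selects partly on depth, and the G2/M limit left out 47.5% to 55.5% of the barcodes with 8 or more S-phase UMIs.

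The limits cut through a continuum. Of the members, 465 had 8 or 9 S-phase UMIs, while 649 barcodes just outside had 6 or 7. On the G2/M side 687 members had 8 or 9 UMIs, while 574 barcodes just outside had 10 or 11. Past the filter, 87 barcode sequences occurred in 2 libraries, and 3 of them were members in both.

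**Figure D1:**
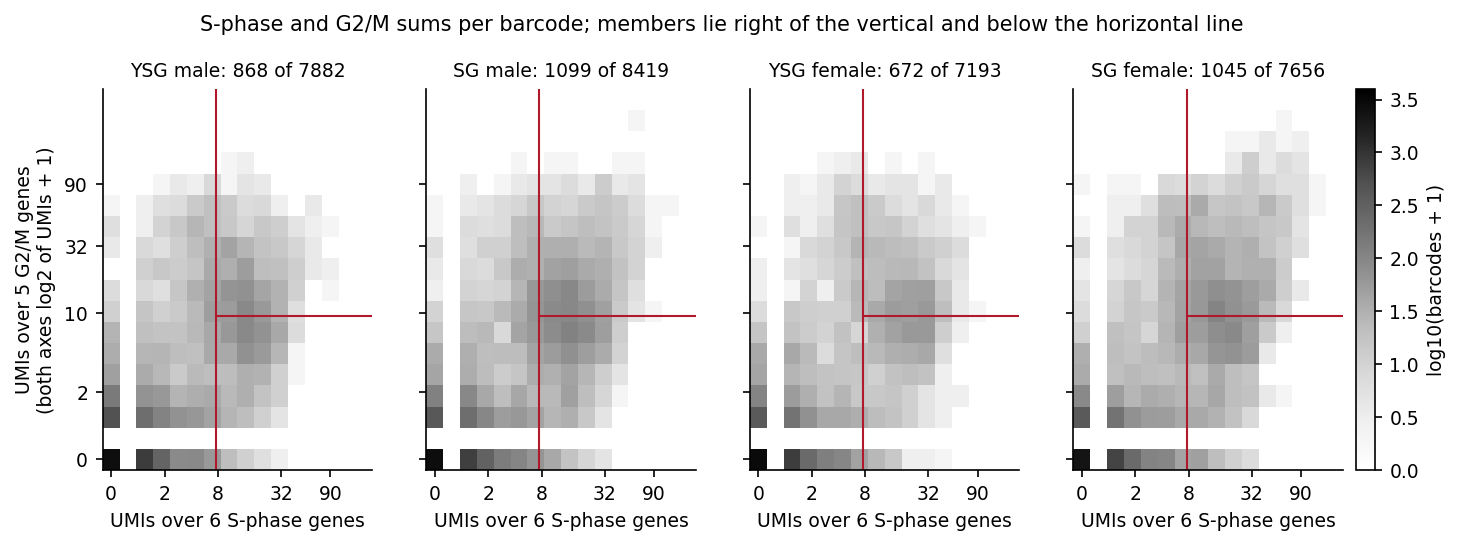
UMIs of the 5 G2/M genes (vertical) against UMIs of the 6 S-phase genes (horizontal) for every barcode past the filter, both on a log2 scale of UMIs + 1, 1 panel a library, with darker cells holding more barcodes on a log10 scale. Members lie right of the vertical and below the horizontal line (868, 1099, 672 and 1045 barcodes), and no gap separates them from the barcodes above the line, which had 10 or more G2/M UMIs.

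The next comparison set each library's members against its remaining barcodes. It describes the members and was not tested, since the same cells' genes chose them. Genes counted as measured at 20 CPM or more in at least 1 of the 2 sets, and as past 2-fold by log2 of (CPM + 1) over (CPM + 1). The genes past 2-fold higher in members were 119 in YSG males (1.75% of genes measured), 88 in SG males (1.29%), 177 in YSG females (2.52%) and 58 in SG females (0.844%). The genes past 2-fold lower were 7 (0.103%), 9 (0.132%), 33 (0.47%) and 18 (0.262%) in the same libraries. Of 6388 genes measured in all 4, 53 were past 2-fold higher in every library and 3 were past 2-fold lower. The 53 became 35 when members had fewer than 5 G2/M UMIs and 204 with no G2/M limit.

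The 6 S-phase genes of the rule were past 2-fold higher in every library, which describes the rule and is no finding. Pclaf, a PCNA-binding protein, had 653 CPM in YSG and 616 CPM in SG males, and 716 CPM in YSG and 560 CPM in SG females, against 168 to 226 CPM in the remaining barcodes.

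Among genes outside the rule, regulators of the G1/S transition were high. Ccne2, a cyclin E that activates Cdk2, had 70.9 CPM in members and 15.8 CPM in remaining barcodes of YSG males, and 94.2 and 24.5 CPM in those of SG males. In YSG females Ccne2 had 110 CPM in members and 20.8 CPM in remaining barcodes, and in SG females 94.7 and 27.5 CPM. The log2 ratios were 2.09, 1.90, 2.34 and 1.75 in YSG males, SG males, YSG females and SG females. Ccne1, the other cyclin E, had log2 ratios of 1.68, 1.79, 1.98 and 1.49, and E2f2, an activating E2F, of 1.60, 1.56, 1.95 and 1.29, in the same order of libraries. Mybl2, which hands the programme on towards G2/M genes, had 1.97, 1.57, 2.20 and 1.36, and its relative Myb 1.69, 1.54, 1.99 and 1.34. Of the 17 listed G1/S regulators, 10 of 16 measured were past 2-fold higher in YSG males, 9 of 17 in SG males, 13 of 17 in YSG females and 5 of 17 in SG females.

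Origin licensing came next. Mcm6, whose promoter is printed above, had 240 CPM in members and 94.8 CPM in remaining barcodes of YSG males, and 184 and 74.4 CPM in those of SG males. YSG females had 264 CPM of Mcm6 in members and 85.1 CPM in remaining barcodes, and SG females 195 and 86.6 CPM. The helicase subunits Mcm2 to Mcm7 were all higher in members of every library, by 0.67 to 1.82 on the log2 scale. Cdt1, which loads the helicase, had log2 ratios of 1.44, 1.24, 1.50 and 1.07, and Gmnn, which blocks Cdt1 once S phase has begun, of 1.22, 1.22, 1.74 and 1.18. Orc2, a subunit of the origin recognition complex, was nearer equality, at 0.35, 0.28, 0.39 and 0.35. Of 10 measured licensing genes, 7 in YSG males, 6 in SG males, 8 in YSG females and 4 in SG females were past 2-fold higher.

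Replisome genes were higher as a group, with list medians of 1.17, 0.97, 1.38 and 0.89 on the log2 scale in YSG males, SG males, YSG females and SG females. Cdc45, which completes the active helicase, had 69.4 CPM in members and 21 CPM in remaining barcodes of YSG males, and 78 and 28 CPM in those of SG males. The same gene had 79.3 and 21.3 CPM in members and remaining barcodes of YSG females, and 77.3 and 31.5 CPM in those of SG females. Pcna, the sliding clamp of the polymerases, had log2 ratios of 1.27, 1.19, 1.59 and 1.01. Dscc1, a subunit of a loader of that clamp, had 1.67, 1.34, 1.90 and 1.30, and Dna2, a nuclease that trims the flaps between new fragments, had 1.39, 1.54, 1.76 and 1.32. Lig1, which joins these fragments, had 1.53, 1.30, 1.79 and 1.20. Over all genes measured in each library the median was -0.03, -0.04, -0.03 and -0.02.

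Among genes that supply nucleotides, 4 of 13 measured were past 2-fold higher in YSG males, 4 of 13 in SG males, 7 of 14 in YSG females and 3 of 14 in SG females. Tyms, which makes thymidylate, had 110 CPM in members and 38.5 CPM in remaining barcodes of YSG males, and 128 and 46 CPM in those of SG males. YSG females had 155 and 42.5 CPM of Tyms in members and remaining barcodes, and SG females 126 and 51.9 CPM. Atic, an enzyme of purine synthesis, had log2 ratios of members over remaining barcodes of -0.06, -0.06, -0.01 and 0.04 in YSG males, SG males, YSG females and SG females. In the same order, Impdh2, of guanine nucleotide synthesis, had 0.24, 0.27, 0.34 and 0.23, while Paics, also of purine synthesis, had 0.82, 0.68, 1.02 and 0.69.

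The checkpoint and repair list had medians of 0.96, 0.78, 1.08 and 0.71, with 9, 6, 14 and 4 of 19 measured genes past 2-fold higher in YSG males, SG males, YSG females and SG females. Ung, which removes uracil from DNA, had log2 ratios of 1.69, 1.51, 2.02 and 1.48. Brca1, which repairs broken forks, had 123 CPM in YSG and 109 CPM in SG males, and 128 CPM in YSG and 93.3 CPM in SG females.

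Of the 11 chromatin assembly genes, 10 were higher in members of all 4 libraries. Chaf1b, a subunit of the chaperone that places histones behind the fork, had log2 ratios of 1.46, 1.28, 1.85 and 1.16, and Slbp, which binds the stem-loop of histone messages, 1.41, 1.29, 1.58 and 1.08. The replication histone Hist1h1a, a linker histone, had 1.85, 1.66, 2.25 and 1.31, and Hist1h2ae, a core histone, 1.75, 1.66, 1.87 and 1.28. Histone genes of the cluster are near copies of each other and most of their messages lack a poly(A) tail, so their values are uncertain. Cenpa, the centromeric histone that is made late in the cycle, was lower in members, with 68.3 CPM in members and 142 CPM in remaining barcodes of YSG males, and 79.5 and 164 CPM in those of SG males. In YSG females Cenpa had 69.9 CPM in members and 134 CPM in remaining barcodes, and in SG females 69.3 and 189 CPM.

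Over all 110 listed replication genes, 55 of 97 measured were past 2-fold higher in YSG males, 44 of 97 in SG males, 72 of 100 in YSG females and 30 of 98 in SG females. Those above 0 were 92, 93, 96 and 95. The values were lowest in SG females, where G2/M-high barcodes were also most frequent, at 15.4%, 18.3%, 13.2% and 22.6% of all barcodes in YSG males, SG males, YSG females and SG females. The part of that share in the difference was not tested.

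The 15 named genes that were highest over the remaining barcodes, ranked by the library where each was least so, were Ccne2, Ccne1, Ung, Slfn9, Fam111a, Mybl2, Wdr76, Myb, Dna2, Hist1h1a, Dscc1, E2f2, Hist1h2ae, Cdc45 and Tyms. Slfn9, a Schlafen family gene, had 61.8 CPM in members and 15.6 CPM in remaining barcodes of YSG males, and 64.1 and 18.1 CPM in those of SG males. YSG females had 112 CPM of Slfn9 in members and 21.9 CPM in remaining barcodes, and SG females 58.7 and 21 CPM. Fam111a, a protease that acts at replication forks, had log2 ratios of 1.78, 1.51, 2.26 and 1.37. Of these 15 genes 11 had a RefSeq promoter window, and the E2F element was in 1 of 14 windows, that of E2f2.

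The 3 genes past 2-fold lower in members of all 4 libraries were Gas2l3, Cntn2 and Pnoc. Gas2l3, which binds the cytoskeleton at cell division, had 15.7 CPM in members and 37.8 CPM in remaining barcodes of YSG males, and 10.3 and 31.1 CPM in those of SG males. It had 12.9 and 29.4 CPM in members and remaining barcodes of YSG females, and 5.19 and 37.5 CPM in those of SG females. Cntn2, an adhesion molecule of granule neurons that have just left the cycle, had log2 ratios of -1.01, -1.05, -1.41 and -1.08. Pnoc, a neuropeptide precursor, had -1.57, -1.67, -1.23 and -1.71. The other 12 named genes were Cenpa, Dpysl3, Myt1, Srgap3, Tex14, Cep89, Samd12, Mir124a-1hg, Kdm5b, A330076H08Rik, Cdc20 and Pak7. Dpysl3, a growth cone protein, had -0.79, -0.79, -1.04 and -0.89, and Myt1, a neural zinc-finger factor, had -0.80, -0.70, -0.99 and -0.97. The granule differentiation list had medians of -0.43, -0.41, -0.65 and -0.52, while the granule progenitor list had -0.22, -0.20, -0.13 and -0.17.

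Against G2/M-high barcodes alone, the members' replication genes were still higher, by smaller amounts. The replisome list had medians of 0.57, 0.47, 0.53 and 0.48 in YSG males, SG males, YSG females and SG females, and origin licensing 0.56, 0.46, 0.53 and 0.50. Ccne2 had 1.20, 1.10, 1.08 and 1.17. The G2/M list had medians of -0.77, -0.60, -0.77 and -0.67, and Ube2c, the E2 enzyme of the anaphase-promoting complex, had 174 CPM in members and 611 CPM in G2/M-high barcodes of YSG males, and 123 and 474 CPM in those of SG males. Ube2c had 128 and 640 CPM in members and G2/M-high barcodes of YSG females, and 108 and 454 CPM in those of SG females. The granule differentiation list had medians of -0.10, -0.00, 0.03 and -0.22.

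**Figure D2:**
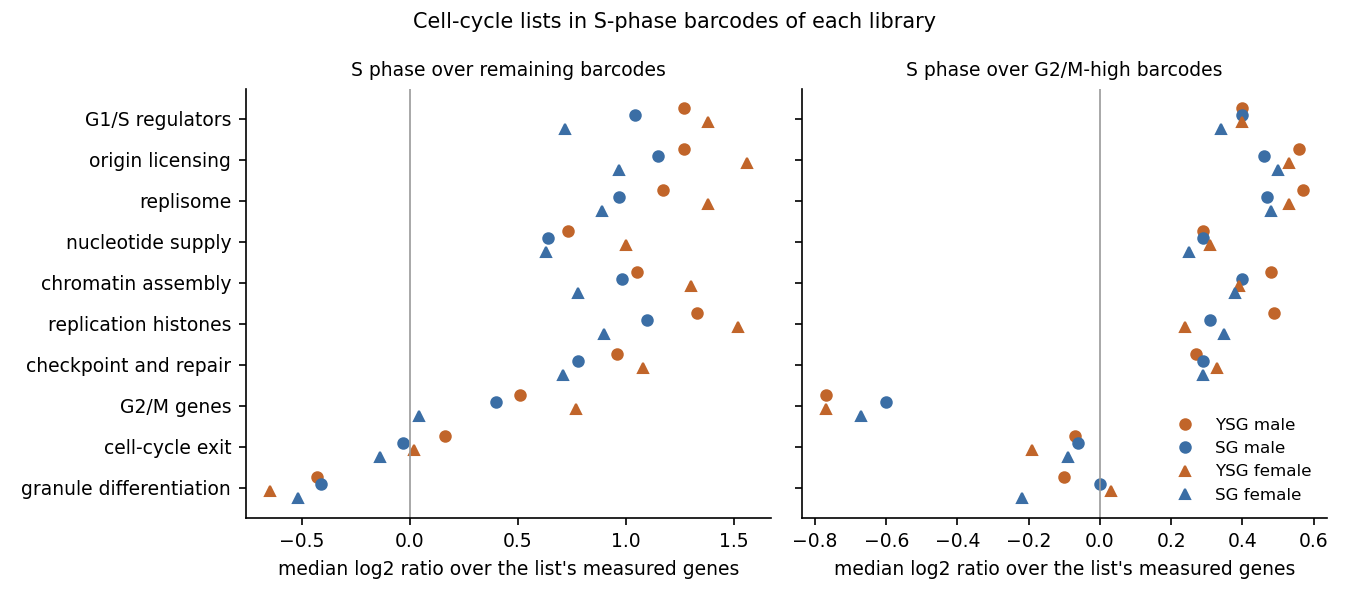
Median log2 ratio over the measured genes of each list, members over remaining barcodes (left) and over G2/M-high barcodes (right), with 1 point a library (orange YSG, blue SG, circles males, triangles females). The replication lists lie right of 0 in both panels in all 4 libraries, and the G2/M list lies left of 0 only against G2/M-high barcodes.

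The members were not uniform. Those with 0 G2/M UMIs numbered 46 of 868 in YSG males, 76 of 1099 in SG males, 57 of 672 in YSG females and 93 of 1045 in SG females, and those with 5 to 9 made up 53.1%, 54.1%, 51% and 49.4%. Between these ends, 8 named genes were lower in members with 0 G2/M UMIs. Mki67, a protein of the mitotic chromosome surface, had log2 ratios of -1.36, -1.41, -2.28 and -1.68 for members with 0 over those with 5 to 9, and Incenp, a scaffold of the Aurora B complex, of -1.58, -1.51, -2.09 and -1.64. Cdca3 had -1.77, -2.34, -1.80 and -2.28. Ube2c, Bub1b, Cep55, Cenpa and the replication histone gene Hist1h2ap were the other named genes. Since 5 G2/M genes made the split, these values describe it.

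Histone messages were lower in members with 0 G2/M UMIs as well. The replication histone list had medians of -0.97, -1.20, -1.66 and -1.38 for members with 0 over those with 5 to 9 G2/M UMIs, and Hist1h1b, a linker histone, had -0.97, -1.37, -2.18 and -1.83. Esco2, which joins sister chromatids at the fork, had -1.01, -1.27, -2.13 and -1.25. Mcm2, a helicase subunit, had 0.57, 0.55, 0.27 and 0.66. Ung had 0.27, 0.78, 0.29 and 1.01, so both Mcm2 and Ung were higher in members with 0 G2/M UMIs in all 4 libraries. Their lists did not share this direction. Origin licensing had medians of -0.18, 0.04, -0.35 and 0.03, and G1/S regulators of -0.68, -0.08, -0.63 and -0.10. Whether members with 0 G2/M UMIs were earlier in S phase was not tested. Named genes higher in members with 0 G2/M UMIs included Srebf1, a regulator of lipid synthesis, at 1.27, 0.50, 1.20 and 0.63. Aprt, an adenine salvage enzyme, was another, at 0.76, 0.55, 0.52 and 0.69. The other named genes were Gm17322, Slc35a1, Guk1, Wnt4, Gpd2 and Ifitm2, at 0.42 to 1.38. Members with 0 G2/M UMIs were few, so these ratios rest on less RNA than the others.

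The share of barcodes in S phase was lower in YSG than in SG in both sexes. It was 11% (95% interval 10.3% to 11.7%, exact Clopper-Pearson) in YSG males and 13.1% (12.3% to 13.8%) in SG males, and 9.34% (8.68% to 10%) in YSG females and 13.6% (12.9% to 14.4%) in SG females. The YSG share was 0.844 times the SG share in males (0.771 to 0.923) and 0.684 times in females (0.62 to 0.755). The intervals leave out differences between animals, which 1 library a group cannot show.

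Depth touches these shares, so each barcode of 4000 or more UMIs was also thinned to 4000 UMIs and counted at 4 or more S-phase and fewer than 5 G2/M UMIs. The thinned shares were 14.3% in YSG and 17% in SG males, and 13.2% in YSG and 18% in SG females. Their ratios were 0.84 (0.769 to 0.917) in males and 0.733 (0.669 to 0.803) in females. Thinning left out 1614, 1501, 1293 and 996 shallower barcodes, among them 15, 18, 16 and 13 members, in YSG males, SG males, YSG females and SG females. Within depth classes the ratio in males was 0.901 (0.779 to 1.04) at 4000 to 8000 UMIs, 0.8 (0.698 to 0.917) at 8000 to 16000 UMIs and 1.21 (0.958 to 1.53) above. In females it was 0.552 (0.438 to 0.693), 0.817 (0.717 to 0.931) and 0.926 (0.742 to 1.15). The deepest class thus did not show the lower YSG share in males, and in females its interval held 1.

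G2/M-high barcodes were also a smaller share in YSG, at 15.4% in YSG and 18.3% in SG males and 13.2% in YSG and 22.6% in SG females. After thinning, the YSG share was 0.939 times the SG share in males (0.862 to 1.02) and 0.742 times in females (0.674 to 0.816). Members made up 41.7% of all S-phase and G2/M-high barcodes in YSG and 41.6% in SG males, and 41.5% in YSG and 37.7% in SG females. The ratio of these shares, YSG over SG, was 1 for males (0.914 to 1.09) and 1.1 for females (0.997 to 1.21).

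**Figure D3:**
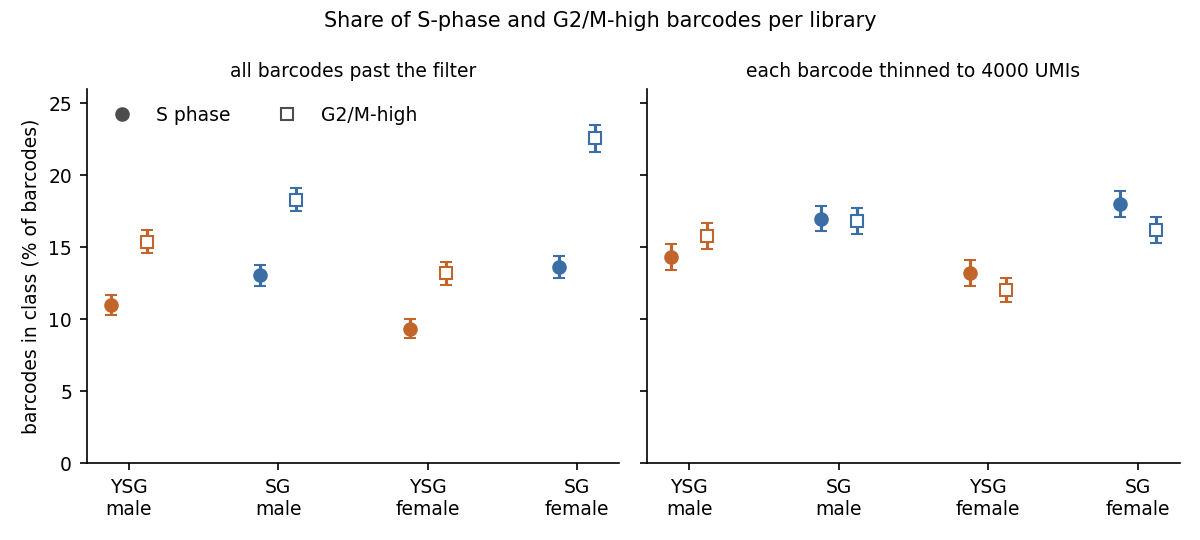
Share of barcodes (vertical axis, %) that were S-phase members (filled circles) or G2/M-high (open squares) in each library, YSG in orange and SG in blue, with exact 95% intervals of counting error, before (left) and after thinning to 4000 UMIs (right). The S-phase share is lower in YSG than in SG of the same sex in both panels, and the G2/M-high shares of males come together after thinning.

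Within S phase, few replication genes differed by 2-fold between YSG and SG. Of the 110 listed replication genes, 99 were measured in males, where 1 was past 2-fold higher in YSG, 1 was lower, and the median log2 of YSG over SG was -0.10. In females 100 were measured, 0 were past 2-fold higher and 1 was lower, and the median was 0.21. Over all genes, 104 of 6842 were past 2-fold higher in YSG males (1.52%) and 104 lower (1.52%), and in females 140 of 7003 were higher (2%) and 133 lower (1.9%), with medians of -0.01 in each sex. The members' shares past 2-fold are near or below these, so their few calls are no result about the list. Within 0.5 on the log2 scale of equality lay 88 of the 99 genes in males and 87 of the 100 in females. The rule used S-phase UMIs to choose members in both genotypes, and its part in these values was not tested.

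Pcna had 432 CPM in YSG and 478 CPM in SG males, and 513 CPM in YSG and 419 CPM in SG females. Mcm6 had 240 CPM in YSG and 184 CPM in SG males, and 264 CPM in YSG and 195 CPM in SG females. Neither differed by 2-fold, and Pcna was lower in YSG males and higher in YSG females. Rpa3, a subunit of the protein that coats single-stranded DNA, was the gene past 2-fold lower in males, with 27.2 CPM in YSG and 64 CPM in SG males. In females Rpa3 had 73 CPM in YSG and 53.5 CPM in SG, so YSG males stood apart from the other libraries. The same held in the remaining barcodes, where Rpa3 had a log2 ratio of -1.26 in males and 0.31 in females.

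G1/S regulators had medians of -0.27 in males and 0.06 in females. Of 17 measured 0 were past 2-fold in either sex, which is near the share over all genes (1.52% each way in males, and 2% higher and 1.9% lower in females) and is no result about the list. Ccne1 had 22.8 CPM in YSG and 35.4 CPM in SG males, and 21.1 CPM in YSG and 29.2 CPM in SG females, the lowest log2 ratio of the list in both sexes at -0.61 and -0.45. E2f2 had 62.7 CPM in YSG and 50.5 CPM in SG males, and 65 CPM in YSG and 36.6 CPM in SG females, among the highest at 0.31 and 0.81. Dtl, which directs Cdt1 to degradation, had 0.33 and 0.49. Cdkn1a, the p21 inhibitor of Cdk2, had 311 CPM in YSG and 290 CPM in SG males and 297 CPM in YSG and 300 CPM in SG females.

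Tumour-state genes of the same cells are given next. They were named or listed with genotype differences of these libraries known, while the rule chose members by S-phase genes. The sizes of their differences are therefore not set against those of the replication genes. Pdlim3, a protein of actin-linked Z-discs, had 1.38 CPM in YSG and 112 CPM in SG males, and 2.14 CPM in YSG and 133 CPM in SG females. It was 80.7-fold (47 to 152) higher in SG than in YSG males and 62.4-fold (38.9 to 107) in SG than in YSG females. The YSG members held 13 and 17 Pdlim3 UMIs in males and females, and the SG members 1359 and 1876. After thinning, 0.469% of YSG and 28.8% of SG male members had a Pdlim3 UMI, and 1.07% of YSG and 32.8% of SG female members. Barcodes of leukocytes and oligodendrocytes, which should lack it, had one in 0 of 27 and 6 of 31 in YSG and SG males, and in 0 of 28 and 6 of 25 in YSG and SG females, so the level in SG members lay within the exact intervals of these few barcodes (7.45% to 37.5% in SG males and 9.36% to 45.1% in SG females). Unthinned, 1.5% of YSG and 50% of SG male members and 1.93% of YSG and 60.4% of SG female members had a Pdlim3 UMI. Before thinning, these members had median depths of 8675, 9005, 10501 and 10623 UMIs and the background barcodes of 7198, 7993, 8782 and 13655 UMIs, in YSG males, SG males, YSG females and SG females.

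Pdlim3 belonged to a list of 17 mesenchymal and fetal genes. Of these, 12 of 14 measured were past 2-fold lower in YSG males and 14 of 14 in YSG females. Over all genes 1.52% were past 2-fold lower in males and 1.9% in females. The listed genes passed the filter mostly through SG, which partly sets these counts. In members or remaining barcodes, 14 reached 20 CPM in SG and 2 in YSG males, and 15 in SG and 4 in YSG females. The list medians were -2.46 and -2.48 in members, and -2.69 and -2.79 in the remaining barcodes. The list was drawn up with earlier results of these libraries known, so its direction is no independent evidence. Igf2bp1, an RNA-binding protein of fetal tissues, had 0.638 CPM in YSG and 26.6 CPM in SG males, and 1.26 CPM in YSG and 27.2 CPM in SG females. Cavin1, which shapes caveolae, had 12.3 CPM in YSG and 88 CPM in SG males, and 12.8 CPM in YSG and 106 CPM in SG females. Des, the muscle intermediate filament desmin, had 2.23 CPM in YSG and 20.2 CPM in SG males, and 2.64 CPM in YSG and 31.2 CPM in SG females.

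Igf2bp1, Cavin1 and Des were lower in YSG than in SG of each sex. They are among the 12 genes named as furthest lower in YSG, so their direction follows from that choice. Grb10, an imprinted adaptor that dampens insulin and IGF signalling, had 13.7 CPM in YSG and 77 CPM in SG males, and 8.17 CPM in YSG and 111 CPM in SG females. Other named genes lower in YSG were Col5a2, Runx1, Flnc, Lsp1, Nptx1 and Gm8797, whose log2 ratios ran between -2.07 and -2.85 for males and between -1.98 and -2.72 for females. Col5a2, a collagen, was at 0.08 in the 48 YSG and 75 SG female members with 0 UMIs of other cell types. Gm8797 is named only as a gene model and its reads may be shared with a near copy.

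Other genes were higher in YSG members. Otx1, a homeobox factor of the developing brain, had 54.3 CPM in YSG and 11.2 CPM in SG males, and 82.4 CPM in YSG and 11.7 CPM in SG females. It was 4.83-fold (3.99 to 5.88) higher in YSG than in SG males and 7.06-fold (5.94 to 8.43) in YSG than in SG females. After thinning, 18.3% of YSG and 4.35% of SG male members had an Otx1 UMI, and 27% of YSG and 4.26% of SG female members, against 2 of 27, 0 of 31, 4 of 28 and 0 of 25 leukocyte and oligodendrocyte barcodes in YSG males, SG males, YSG females and SG females. In all 4 libraries the members' share lay within the exact interval of these few barcodes, which was 0.91% to 24.3% in YSG and 0% to 11.2% in SG males, and 4.03% to 32.7% in YSG and 0% to 13.7% in SG females. Unthinned, the members' shares were 36.9% in YSG and 10.8% in SG males, and 52.4% in YSG and 12.5% in SG females. Of the 8 genes listed with Otx1, 5 of 5 measured were past 2-fold higher in YSG in each sex, with medians of 2.17 and 2.55. Over all genes 1.52% were past 2-fold higher in males and 2% in females. The listed genes passed the filter mostly through YSG, which partly sets these counts. In members or remaining barcodes, 6 reached 20 CPM in YSG and 3 in SG males, and 7 in YSG and 2 in SG females. Like the list above, this list was drawn up with these libraries' results known.

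Myt1l, a zinc-finger factor of neurons, had 69.8 CPM in YSG and 12.2 CPM in SG males, and 77.4 CPM in YSG and 8.61 CPM in SG females. Tlx3, a homeobox factor of neuron subtypes, had 92.7 CPM in YSG and 34 CPM in SG males, and 116 CPM in YSG and 32.2 CPM in SG females. Myt1l and Tlx3 were each higher in YSG than in SG of the same sex. After thinning, Myt1l was in 20.9% of YSG male and 23.3% of YSG female members, and Tlx3 in 26.6% and 32.5%. The exact intervals of leukocyte and oligodendrocyte barcodes were 6.3% to 38.1% and 10.7% to 44.9% for Myt1l. For Tlx3 they were 4.19% to 33.7% and 8.3% to 41%. In all 4 libraries the members' shares of both genes lay within these barcodes' intervals. Kcnj6, Samd12, Cadps2, Chrna3, Syndig1l and Gm42047, a gene model, were further named genes, whose log2 ratios ran between 1.48 and 3.09 for males and between 1.41 and 2.80 for females. In the 58 YSG and 85 SG male members with 0 UMIs of other cell types, Kcnj6 was at 0.96 and Chrna3 at 0.14, which is not past 2-fold.

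Mndal, a member of the p200 genes that interferon induces, had the highest ratio of the named genes. It had 384 UMIs in YSG and 2 in SG male members, a ratio of 249 (68.4 to 2060), and 605 in YSG and 0 in SG female members, at least 356-fold higher against a floor of 3 UMIs in the SG female library. Trf, the iron carrier transferrin, had 260 UMIs in YSG and 28 in SG males, and 484 in YSG and 34 in SG females, but 1 YSG female barcode held 365 of its 484 and 1 YSG male barcode 64 of its 260. Oligodendrocytes also make transferrin. Without barcodes that had 20 or more UMIs of another cell type, a choice made after seeing the data, the log2 ratio of Trf was 2.44 for males and 2.18 for females, against 3.12 and 4.18 with them. In the 48 YSG and 75 SG female members with 0 UMIs of other cell types it was -0.76.

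Some granule differentiation genes were also higher in YSG members. Gap43, a growth cone protein, had 359 CPM in YSG and 171 CPM in SG males, and 464 CPM in YSG and 175 CPM in SG females. Stmn2, a neuronal microtubule regulator, had 396 CPM in YSG and 204 CPM in SG males, and 468 CPM in YSG and 137 CPM in SG females. Neurod1, which drives granule neurons to differentiate, had 208 CPM in YSG and 127 CPM in SG males, and 275 CPM in YSG and 111 CPM in SG females. All 3 were higher in YSG of both sexes. Thinned, Neurod1 was in 49.2% of YSG and 35.2% of SG male members, within the leukocyte and oligodendrocyte intervals (16.5% to 54% and 14.2% to 48%). In females 56.4% of YSG and 32.9% of SG members lay above them (10.7% to 44.9% and 0.984% to 26%). Of 13 measured genes of the list, 1 was past 2-fold higher in males and 5 in females, against 1.52% and 2% of all genes. The 1 in males is no result about the list. The list medians were 0.56 and 0.87. The same list had medians of 0.57 and 0.88 in remaining barcodes.

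Hedgehog genes differed in both directions. Gli3, a Gli factor that mostly represses, had 21.3 CPM in YSG and 45.3 CPM in SG males, and 18 CPM in YSG and 50.7 CPM in SG females. Gli1, the activator and readout of the pathway, had 31.6 CPM in YSG and 48.8 CPM in SG males, and 26.7 CPM in YSG and 64.2 CPM in SG females. Sfrp1, a secreted Wnt inhibitor and hedgehog target, had 630 CPM in YSG and 277 CPM in SG males, and 522 CPM in YSG and 228 CPM in SG females. Gli1 and Gli3 were lower and Sfrp1 higher in both YSG libraries, and the medians of the list were -0.10 and -0.29. Among stem and glial genes, Sox2, a stem cell factor, had 30.2 CPM in YSG and 58.4 CPM in SG males, and 24.5 CPM in YSG and 75.2 CPM in SG females. Thinned, Sox2 was in 8.68%, 18.5%, 6.1% and 22.6% of members in YSG males, SG males, YSG females and SG females. Leukocyte and oligodendrocyte barcodes had it in 29.6%, 41.9%, 32.1% and 56%. The members' shares lay below these barcodes' exact intervals, which began at 13.8%, 24.5%, 15.9% and 34.9%. The stem and glial list had medians of -0.37 in males and -0.65 in females, and the male median had the opposite sign, 0.12, in members with 0 UMIs of other cell types. The astroglial sums given above were also lower in YSG, and their part in the stem and glial values was not tested.

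**Figure D4:**
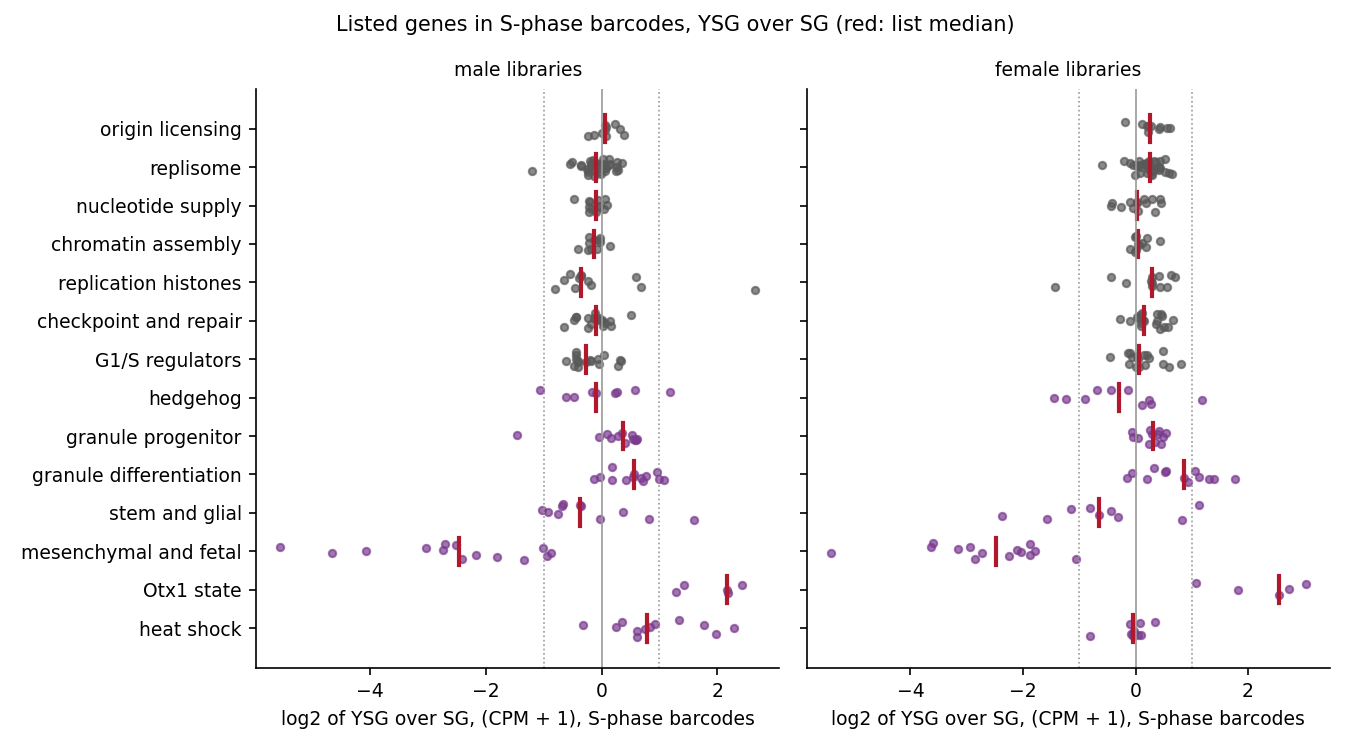
Log2 of YSG over SG within members for each measured gene (points) of 14 lists, males left and females right, with red bars at list medians, dotted lines at 2-fold and vertical jitter only to part the points. Replication lists (grey) cluster near 0 with a few histones and Rpa3 apart, the mesenchymal and fetal list lies to the left in both sexes and the Otx1 list to the right, and the median of the heat shock list lies right of 0 in males only.

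The genotype values of named genes in members were near those in the remaining barcodes. Of the genes past 2-fold, 54 were higher in YSG in both sexes, which is 51.9% of the male and 38.6% of the female genes, and 71 were lower in both, 68.3% and 53.4%. Pdlim3 had log2 ratios of -5.56 in members and -5.48 in remaining barcodes of males, and -5.42 and -5.74 in those of females. For Otx1 the values were 2.18 in members and 2.37 in remaining barcodes of males, and 2.72 and 2.71 in those of females. The replisome list was at -0.10 in members and -0.23 in remaining barcodes of males, and at 0.26 and -0.26 in those of females. A smaller share of YSG barcodes in cycle and a lower level per cycling cell cannot be told apart in the sums over remaining barcodes. The members show the level within the selected cells only. The rule chose these by S-phase UMIs in both genotypes, so they cannot show the level per cycling cell either.

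**Figure D5:**
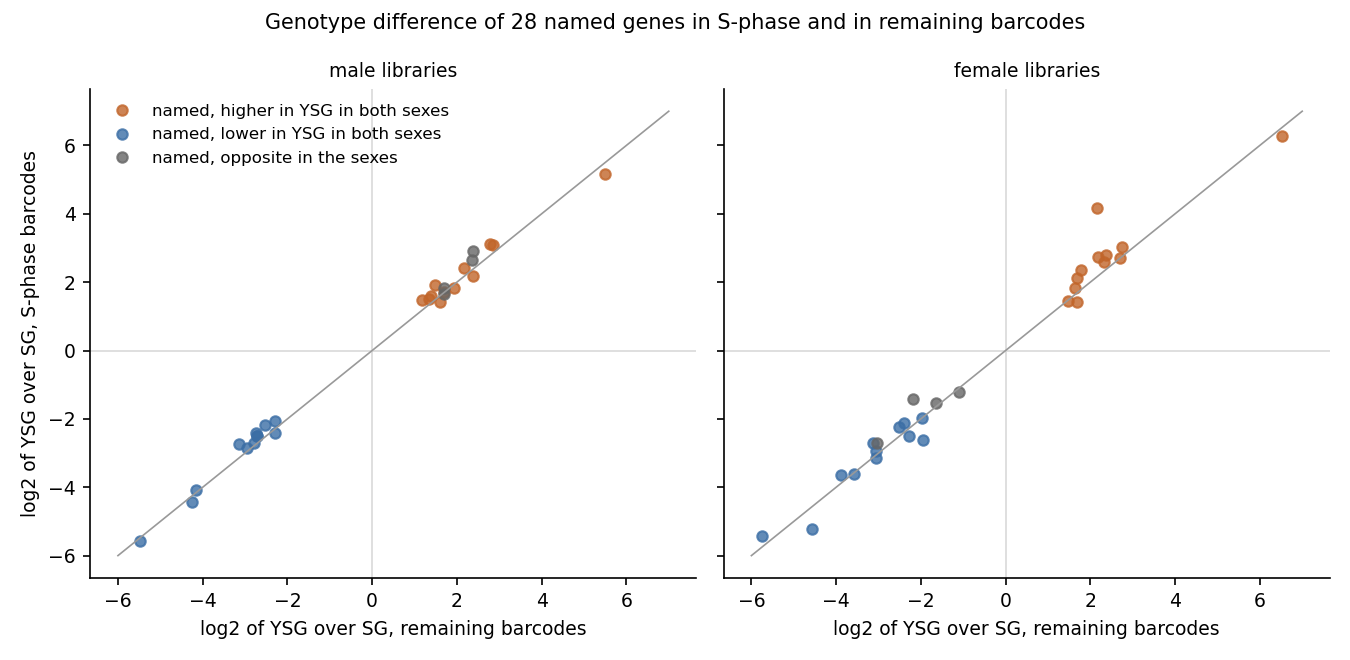
Log2 of YSG over SG in members (vertical) against remaining barcodes (horizontal) for 28 named genes, males left and females right, with the line of equality. The points follow the line over the whole range, from Pdlim3 at -5.56 in male members to Mndal at 6.27 in female members, and Trf in females lies above it at 4.18 in members and 2.15 in remaining barcodes.

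Between the sexes 4 genes ran past 2-fold in opposite directions. Mid1, a ubiquitin ligase gene at the edge of the pseudoautosomal region in mice, had 46.1 CPM in YSG and 5.25 CPM in SG males, and 4.78 CPM in YSG and 36.9 CPM in SG females. Hist1h2ap, a histone H2A gene, had 153 CPM in YSG and 23.3 CPM in SG males, and 41.4 CPM in YSG and 113 CPM in SG females. YSG males and SG females were high and the other libraries low for both genes. The gene models Gm47283 (log2 1.83 in males and -1.54 in females) and Gm10076 (1.65 and -1.20) had the same order. Gm47283 is annotated on chromosome Y, but female members also had counts of it, at 105 CPM in YSG and 307 CPM in SG. Hist1h2ap and the gene models have near copies, so their reads may be split between loci.

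Heat shock genes were high in the YSG male library. Of 12 measured in males, 4 were past 2-fold higher in YSG members (Hspa1a, Hspa1b, Hsph1 and Hspb1), and the list median was 0.79. In females 0 of 10 measured were past 2-fold and the median was -0.04. Over all genes 1.52% were past 2-fold higher in males, and 2% higher and 1.9% lower in females. The 0 in females is near those shares and is no result about the list. Hsph1, a co-chaperone of Hsp70, had 693 CPM in YSG and 273 CPM in SG males, and 241 CPM in YSG and 256 CPM in SG females. In the remaining barcodes the median was 0.70 in males and -0.02 in females. With 1 library a group, genotype and library cannot be told apart here.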

How the data were processed

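RNA of 4 tumour libraries was measured by single-cell sequencing with the 10x Genomics 3' kit. The deposited files hold UMI counts per gene and barcode that the authors made with Cell Ranger 5.0.1, per the file headers, on mm10, per the submitters' processing notes. They list 31533 barcodes and 32286 features, with 58478914 to 86906706 UMIs a library, and 0 value columns were left unused. Exact intervals cover counting error only, since 1 library a group gives no spread between animals.

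Groups follow the library titles. UMIs were summed over the members of each library and divided by all their UMIs to give counts per 1000000 (CPM). Log2 ratios have 1 CPM added to both sides, and 2-fold is a log2 size of 1. Counts past 2-fold are over genes at 20 CPM or more in at least 1 of the 2 sets compared. Folds printed with intervals divide the UMI shares with nothing added, so they are further from 1 than the log2 ratio of the same gene. No test was made. Intervals of shares are Clopper-Pearson at 95%, and those of ratios come from the exact conditional binomial. For a fold, a gene at 0 was set to 3 counts in that library, while its log2 ratio kept the 0. Members, gene lists and comparisons were chosen with earlier results of these data known.

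Named genes were, by a fixed rule, the 12 furthest each way for YSG over SG in both sexes (ranked by the smaller size), 15 each way for members over remaining barcodes, 8 each way for 0 over 5 to 9 G2/M UMIs, and up to 6 past 2-fold in opposite directions in the sexes. Some genes that these rules and lists hold are not reported here. Doublets were kept in the values given. Scrublet's own threshold marked 0% of barcodes in 3 libraries and 19.4% in YSG females, so it had not worked. An alternative instead left out barcodes scoring above the value that 6% reach or pass, which with ties was 4.7% to 5.52% of barcodes and 6.51% to 11.1% of members. For shares at equal depth, each barcode was thinned to 4000 UMIs.

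Alternatives changed the limits of the rule, the barcode filter, doublets, the pseudocount, the filter at 20 CPM, scaling, averaging over barcodes, and barcodes with UMIs of other cell types. RefSeq promoter windows of GRCm38.p6 were searched on both strands. Python 3.11.15, numpy 2.4.6, scipy 1.17.1, pandas 2.3.3, matplotlib 3.10.9 and scanpy 1.11.5 were used, and the ratios and intervals were tested on simulated data.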

Additional observations from a re-analysis of the deposited data

Results flagged for a closer look

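Effects of YSG over SG that were opposite in males and females are given here. In each case the difference between the sexes was not tested, as each value rests on 1 library of each genotype. Mid1 had a log2 ratio of 2.91 in males and -2.71 in females, and Hist1h2ap of 2.66 in males and -1.43 in females. Gm47283 had 1.83 in males and -1.54 in females, and Gm10076 had 1.65 in males and -1.20 in females. The replication histone list had a median of -0.36 in males and 0.30 in females, and the immediate early genes one of 0.38 in males and -0.39 in females. The immediate early median in males was 0.08 with fewer than 5 G2/M UMIs allowed and 0.22 with 12 or more S-phase UMIs required. In females it was -0.04 with no G2/M limit and -0.10 in members with 0 UMIs of other cell types. In the remaining barcodes it was 0.01 in males and -0.01 in females.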

How the results depend on the processing

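The YSG share of S-phase barcodes stayed below the SG share under every alternative run, at 0.808 to 0.863 times in males and 0.653 to 0.733 times in females, except for a value of 0.759 in males when barcodes with 3 or more UMIs of another cell type were left out and 0.61 in females with no G2/M limit. The counts of genes past 2-fold between genotypes were 203 higher and 227 lower in males and 316 and 251 in females with a filter at 5 CPM, and 48, 47, 67 and 66 with a filter at 50 CPM. In members with 0 UMIs of other cell types (58, 85, 48 and 75 left in YSG males, SG males, YSG females and SG females) they were 247, 416, 318 and 405. The genes higher in members of all 4 libraries, 53 as given, were 35 with fewer than 5 G2/M UMIs allowed, 204 with no G2/M limit, 33 at 50 CPM and 164 as means over barcodes. Those lower, 3 as given, were 8 and 7 under these G2/M limits, 1 with 5 CPM added, 5 at 5 CPM, 1 at 50 CPM and 20 as means over barcodes. Of 728 values of the 28 named genes, 2 had the opposite sign, Trf at -0.76 and Col5a2 at 0.08 in females, both in members with 0 UMIs of other cell types. Kcnj6 at 0.96 and Chrna3 at 0.14 in males were nearer 0 than 2-fold in the same members. Of 520 list medians 17 turned sign, the furthest from 0 being the stem and glial list in males, at 0.12 in the same members against -0.37. The cause was not tested. Leaving out barcodes with 20 or more UMIs of another cell type was chosen after seeing the data. The labels give no replicate numbers that pair libraries. A fit of genotype with sex as a term over the 4 libraries, which takes the genotype difference as equal in both sexes, was not run, and within a sex no library could be left out since each genotype has 1. A rule on UMI counts selects deeper barcodes. Genes under 20 CPM in both sets compared were left out of the main counts past 2-fold, though values of some, such as Yap1, are given.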

Other observations

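Other cell-cycle genes of the members were compared between genotypes. Ccnd2, the cyclin D of granule progenitors, had 1108 CPM in YSG and 709 CPM in SG males, and 986 CPM in YSG and 722 CPM in SG females. Ccnd1, the other main cyclin D, had 250 CPM in YSG and 355 CPM in SG males, and 376 CPM in YSG and 450 CPM in SG females. Ccnd2 was higher and Ccnd1 lower in YSG of both sexes, each by less than 2-fold. Mycn, a hedgehog-responsive Myc gene, was at 0.48 for males and 0.79 for females on the log2 scale, and Myc at -0.33 and -0.39. Of the cell-cycle exit genes 0 of 10 measured were past 2-fold in either sex, with medians of 0.03 and 0.02. Over all genes 1.52% were past 2-fold each way in males, and 2% higher and 1.9% lower in females, so this is no result about the list.

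The p53 target list had medians of 0.23 in males and 0.10 in females. Eda2r, a death receptor gene, was its member past 2-fold, 1 of 10 measured in females, with 25.8 CPM in YSG and 57.2 CPM in SG. Over all genes 1.9% were past 2-fold lower in females, so this 1 gene is no result about the list. Of 18 genes of the YAP and TAZ list, 4 were measured in males and 5 in females, with medians of -0.14 and -0.36. Wwtr1, which encodes TAZ, had 8.18 CPM in YSG and 19 CPM in SG males, and 10.3 CPM in YSG and 27.7 CPM in SG females. Of 18 antigen presentation and interferon genes 3 were measured in each sex, and Mndal was the 1 past 2-fold. Over all genes 1.52% were past 2-fold higher in males and 2% in females. Mndal was already a named gene and passed the filter only through YSG, so its call is no result about the list. Of the oligodendrocyte precursor list 2 of 7 genes were measured in each sex, with medians of 0.68 and 0.85.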
